A study of Mus musculus with 6 samples.

Results

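Megakaryocytes are the bone marrow cells that shed platelets, and a set of 10 genes for their surface receptors and granule contents was followed in sorted LSK cells. LSKs are bone marrow cells without mature lineage markers that carry Sca1 and c-Kit on their surface, the fraction that holds hematopoietic stem and multipotent progenitor cells. The 10 genes were *Itga2b*, *Itgb3*, *Gp9*, *Gp1ba*, *Gp1bb*, *Gp5*, *Gp6*, *Pf4*, *Ppbp* and *Vwf*, chosen by name from the 54532 genes of the expression table. The mice were C57BL/6 and all carried the floxed *Myh9* allele. *Myh9* codes for the heavy chain of non-muscle myosin IIA. The 3 *Myh9*-deficient libraries (cKO) came from Myh9fl/fl;Mx1-cre mice and the 3 control libraries (CTRL) from littermates without cre. Both groups were given poly I:C at 5 mg/kg, since the Mx1 promoter responds to interferon, and this promoter is not limited to hematopoietic cells. Cells were sorted on day 4 of this treatment, 100000 per set. The number of mice behind each set, and their age on that day, are not given in the labels, which place genotyping at 4 to 5 weeks of age. The p-values therefore measure only the spread between these sets of cells.

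The fibrinogen receptor of platelets is an integrin made of *Itga2b* (CD41) and *Itgb3* (CD61). The receptor for von Willebrand factor joins the products of *Gp1ba*, *Gp1bb*, *Gp9* and *Gp5*, and *Gp6* codes for a receptor for collagen. *Pf4* and *Ppbp* code for chemokines and *Vwf* for an adhesive protein, all stored in the alpha granules of platelets. Some stem cells and early progenitors also carry transcripts of this program, *Itga2b* and *Vwf* among them, so that their presence in LSKs does not by itself mark a megakaryocyte. No antibody of the lineage panel used for sorting was directed against a product of these 10 genes.

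Each library held 17571544 to 19894562 reads on genes. The targeted gene, *Myh9*, stood at 22.5 ± 0.495 FPKM (fragments per kilobase of transcript, scaled for the depth of the library) in the controls and 18.7 ± 1.18 FPKM in *Myh9*-deficient LSKs (SD, n = 3 each), a log2 difference of -0.26 (limma, Benjamini-Hochberg adjusted p = 0.00642). Once trends with GC content and length were taken out of each library, the difference was -0.12 and the adjusted p 0.0562. The table has a single value per gene, so the part cut out by cre was not read separately. The sort markers were present in all libraries, with *Kit* at 23.4 to 24.3 FPKM in the controls and 21.2 to 21.8 FPKM in *Myh9*-deficient LSKs and *Ly6a*, the gene for Sca1, at 93.2 to 96.7 and 85.4 to 92.3 FPKM.

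*Itga2b*, *Gp9* and *Pf4* rose more than 2-fold in *Myh9*-deficient LSKs, while the other 2 genes with enough signal for the test, *Itgb3* and *Gp5*, rose by less. *Ppbp*, read at trace level in control LSKs, had 63 reads against 11. *Vwf* had 1.25 times its control level and *Gp1ba* 1.11 times, neither of which passed a test, *Gp6* had 3 reads in all and *Gp1bb* none. The test was limma on log2(FPKM + 1) over genes whose mean was 1 FPKM or more, with Benjamini-Hochberg adjustment over 11552 genes. Of the 10 genes, 5 passed this filter, and the remaining 5 are described by their reads. All 5 genes tested rose at an adjusted p under 0.05, against 19.9% of all genes tested that did so. A ratio of mean FPKM above 2 at that threshold was seen for 3 of them and for 2.1% of all genes tested. Once trends with GC content and length were taken out, the log2 difference of *Pf4* was 0.91, under 2-fold, that of *Gp9* 1.03 and that of *Itga2b* 1.19, all with an adjusted p under 0.05. In 7 of the 10 genes each *Myh9*-deficient library lay above each control library, which held for 17.1% of all genes with a read. The share was 25.5% among genes tested and 9.48% among genes with a read below the filter, where *Ppbp* and *Vwf* belong. The median log2 difference of the 5 genes tested was 1.07, against -0.0096 over all genes tested. In bulk RNA a greater share of cells that express a gene and more RNA of that gene per cell cannot be told apart, and this holds for every difference given here.

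**Figure D1:**
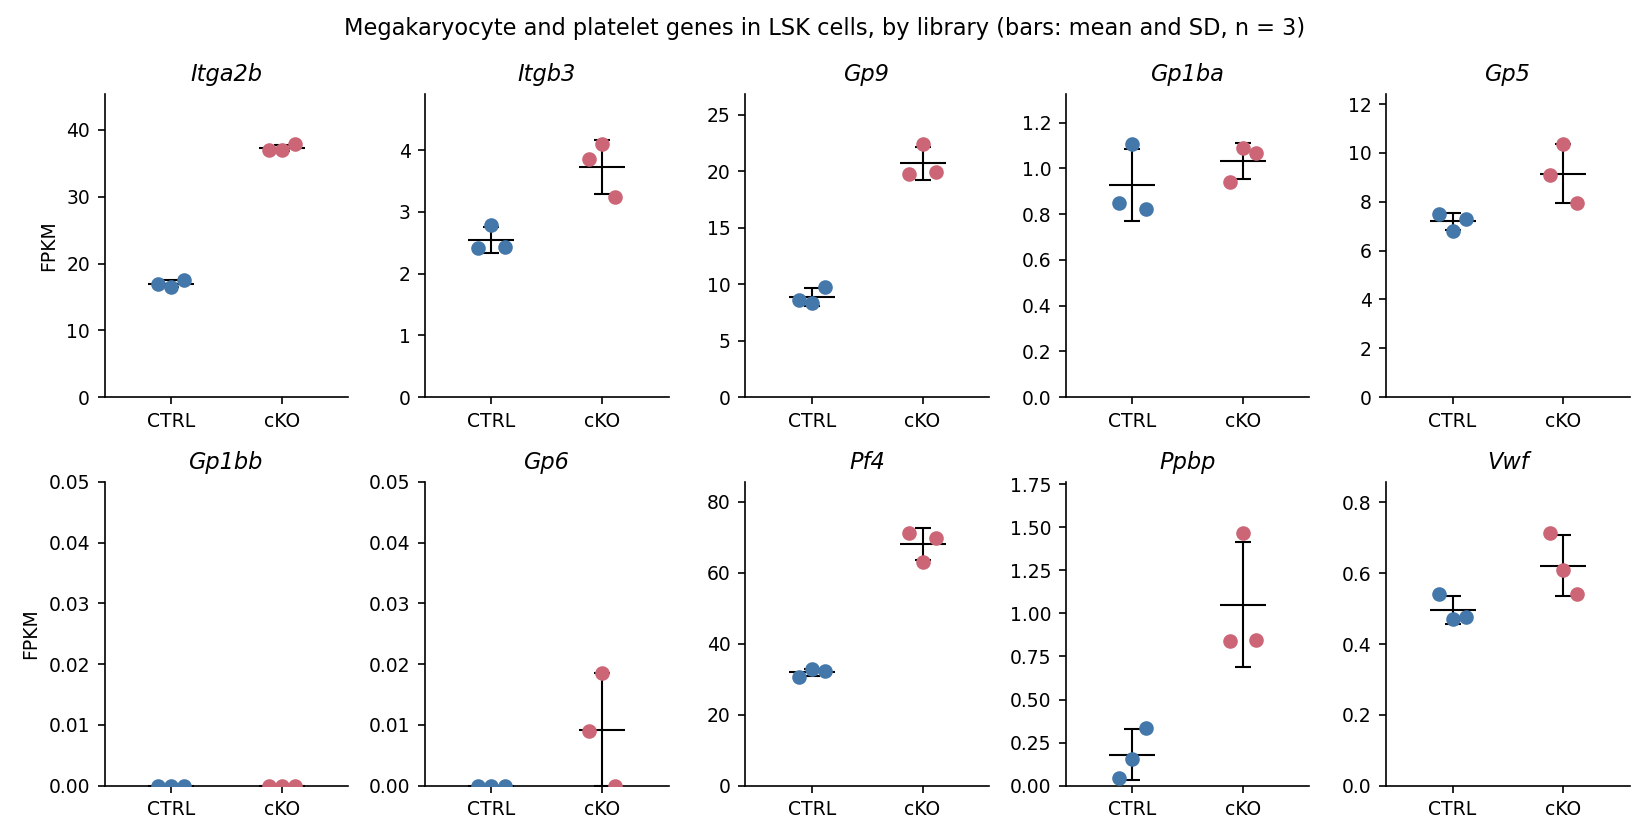
FPKM of each of the 10 genes (vertical axes, each starting at 0) in the 3 control (CTRL, blue) and 3 *Myh9*-deficient (cKO, red) libraries, with bars for the mean and SD. The groups lie far apart for Itga2b (16.5 to 17.6 against 37.0 to 37.9), Gp9 and Pf4, nearly touch for Vwf, and overlap for Gp1ba, while Gp1bb is at 0 in every library.

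Summed over the 10 genes, the level was 67.5 to 70.9 FPKM in control libraries and 140.2 to 143.6 FPKM in *Myh9*-deficient libraries. *Pf4* and *Itga2b* made up 70.2% to 71.5% of the summed FPKM in the controls and 71.4% to 76.2% in *Myh9*-deficient LSKs. On the FPKM scale, which is per transcript length, the order of mean levels in control LSKs was *Pf4*, *Itga2b*, *Gp9*, *Gp5*, *Itgb3*, *Gp1ba*, *Vwf* and *Ppbp*, with *Gp6* and *Gp1bb* at 0. No neighbours in this order overlapped between libraries. In *Myh9*-deficient LSKs *Ppbp* moved up beside *Gp1ba*, and these neighbours overlapped (0.838 to 1.47 FPKM for *Ppbp* and 0.943 to 1.09 FPKM for *Gp1ba*), while the order of the others stayed as in control LSKs.

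Factors of the GATA, ETS and RUNX families are known to act on megakaryocyte promoters, and the DNA around the start sites is shown here for the genes whose levels can be compared. RefSeq windows on GRCm38.p6, of 250 bases before and 50 bases after the start, were found for 8 of the 10 genes, all but *Itgb3* and *Vwf*. Each of the 8 windows read into an annotated transcript of its gene. The letters searched on both strands were AGATAA or TGATAA, as well as AGATAG or else TGATAG, for GATA factors, AGGAAG or else CGGAAG for ETS factors and TGTGGT for RUNX factors, and matches are in capitals, on the reverse strand as the reverse complement. No match overlapped another. The first 5 windows are of genes with steady signal, from *Itga2b* with a large rise to *Gp1ba* with overlapping groups, and the sixth is that of *Ppbp*.
Itga2b promoter, chr11:102469834-102470133, - strand: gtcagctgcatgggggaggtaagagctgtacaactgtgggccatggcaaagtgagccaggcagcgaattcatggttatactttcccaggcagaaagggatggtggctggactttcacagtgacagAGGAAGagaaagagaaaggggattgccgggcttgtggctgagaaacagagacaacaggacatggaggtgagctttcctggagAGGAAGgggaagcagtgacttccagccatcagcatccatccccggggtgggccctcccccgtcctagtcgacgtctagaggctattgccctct
Gp9 promoter, chr6:87777820-87778119, + strand: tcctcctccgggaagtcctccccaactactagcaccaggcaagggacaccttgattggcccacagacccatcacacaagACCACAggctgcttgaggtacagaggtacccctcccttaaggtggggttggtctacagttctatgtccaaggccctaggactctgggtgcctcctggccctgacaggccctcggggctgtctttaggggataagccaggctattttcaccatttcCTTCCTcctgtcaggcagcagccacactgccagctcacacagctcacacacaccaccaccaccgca
Gp1ba promoter, chr11:70638872-70639171, + strand: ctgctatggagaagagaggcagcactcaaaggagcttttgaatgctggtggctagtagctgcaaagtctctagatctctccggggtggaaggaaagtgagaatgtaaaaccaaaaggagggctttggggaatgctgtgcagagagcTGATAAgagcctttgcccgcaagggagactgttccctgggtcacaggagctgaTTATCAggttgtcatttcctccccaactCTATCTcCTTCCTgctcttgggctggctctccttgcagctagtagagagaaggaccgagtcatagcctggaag
Gp5 promoter, chr16:30310732-30311031, - strand: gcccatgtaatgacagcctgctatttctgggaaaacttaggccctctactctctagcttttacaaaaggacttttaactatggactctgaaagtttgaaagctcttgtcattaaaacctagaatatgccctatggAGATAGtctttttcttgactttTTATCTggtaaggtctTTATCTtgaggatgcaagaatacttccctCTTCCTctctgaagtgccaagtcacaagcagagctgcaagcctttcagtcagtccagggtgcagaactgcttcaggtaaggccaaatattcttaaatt
Pf4 promoter, chr5:90772185-90772484, + strand: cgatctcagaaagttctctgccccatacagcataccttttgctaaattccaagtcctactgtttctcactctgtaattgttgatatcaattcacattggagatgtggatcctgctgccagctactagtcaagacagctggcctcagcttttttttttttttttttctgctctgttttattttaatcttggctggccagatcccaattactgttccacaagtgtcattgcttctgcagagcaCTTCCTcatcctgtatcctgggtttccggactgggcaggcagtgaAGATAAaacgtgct
Ppbp promoter, chr5:90768268-90768567, + strand: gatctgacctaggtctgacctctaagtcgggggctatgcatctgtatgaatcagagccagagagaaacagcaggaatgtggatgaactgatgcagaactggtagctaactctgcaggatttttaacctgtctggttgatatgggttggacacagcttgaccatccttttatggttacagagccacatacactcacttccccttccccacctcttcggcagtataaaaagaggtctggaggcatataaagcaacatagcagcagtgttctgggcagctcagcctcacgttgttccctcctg
*Itga2b* had 2 ETS matches, starting 125 and 43 bases before the start site of its RefSeq window, and no GATA match. That start lies inside the gene as annotated here, whose upstream end is at base 102470122. Both ETS matches are thus inside the annotated gene, and the DNA before its upstream end was hardly searched. *Gp9* had an ETS match 16 bases before the start and the sole RUNX match among the 8 windows. *Pf4* had an ETS match 9 bases before the start and a GATA match at base 37 after it. *Gp5* and *Gp1ba*, of which one rose by 1.27-fold and the other had overlapping groups, each had 3 GATA matches and 1 ETS match, and *Ppbp* had no match to any of the letters. Over the 8 windows, GATA matches were found in 5, ETS matches in 6 and both in 4. Of 32851 RefSeq windows of the same length, 29.8% held a GATA match, 46.5% an ETS match, 16.8% a RUNX match and 12.6% both GATA and ETS. These matches are letters in a window and were not tested as sites, and their relation to the differences was not tested.

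The gene of the integrin alpha chain, *Itga2b* (ENSMUSG00000034664, chromosome 11: 102453297 to 102470122, minus strand), was read at 16.9, 16.5 and 17.6 FPKM in control libraries 1, 2 and 3, and at 37.1, 37.0 and 37.9 FPKM in the *Myh9*-deficient libraries. The groups were far apart and each was tight. These values rest on 1590 to 1839 reads per control library and 3684 to 3843 per *Myh9*-deficient library. The mean rose from 17.0 ± 0.524 to 37.3 ± 0.470 FPKM (SD, n = 3 each), a 2.20-fold difference whose range over the 9 pairs of libraries was 2.11 to 2.29. The log2 fold change was 1.09 ± 0.0328 (SE) with an adjusted p of 4.46e-06 (limma), the 143rd largest rise of the 11552 genes tested. The SD was 3.08% of the mean in the controls and 1.26% in *Myh9*-deficient LSKs, where counting error alone would give 2.39% and 1.63%.

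Its partner *Itgb3* (ENSMUSG00000020689, chromosome 11: 104608000 to 104670476, plus strand), whose product also pairs with the integrin chain alpha V, was read at 2.41, 2.79 and 2.44 FPKM in the controls and at 3.85, 4.10 and 3.24 FPKM in *Myh9*-deficient libraries. The lowest *Myh9*-deficient library, the third, was 0.453 FPKM above the highest control library. The mean rose from 2.55 ± 0.211 to 3.73 ± 0.441 FPKM (SD, n = 3 each), or 1.47-fold, with a log2 difference of 0.41 and an adjusted p of 0.0097 (limma). The SD among *Myh9*-deficient libraries was 11.8% of the mean, above the 4.95% of counting error.

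Since both chains are needed for the receptor, the ratio of their transcripts was taken in each library. *Itga2b* over *Itgb3* was 7.00, 5.93 and 7.21 in the controls and 9.61, 9.04 and 11.7 in *Myh9*-deficient LSKs. The groups did not overlap, and the mean ratio was 6.71 ± 0.684 against 10.1 ± 1.39 (SD, n = 3 each, exact two-sided permutation test, p = 0.1). With 3 libraries against 3, 0.1 is the smallest p that this test can give, so no single ratio can pass 0.05.

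Within the receptor for von Willebrand factor, the 4 genes differed widely. *Gp9* (ENSMUSG00000030054, chromosome 6: 87778072 to 87779768, plus strand), the small subunit that the complex needs to reach the surface, was read at 8.56, 8.31 and 9.76 FPKM in the controls and 19.8, 22.4 and 19.9 FPKM in *Myh9*-deficient libraries. No library of one group came near the other. The mean rose from 8.88 ± 0.774 to 20.7 ± 1.48 FPKM (SD, n = 3 each), or 2.33-fold, with a log2 difference of 1.14 ± 0.0721 (SE) and an adjusted p of 7.53e-05 (limma), the largest rise among the 5 genes tested.

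The gene of the outer subunit *Gp5* (ENSMUSG00000047953, chromosome 16: 30307685 to 30310779, minus strand), at a like level in control LSKs, was read at 7.48, 6.82 and 7.30 FPKM in the controls and 9.11, 10.4 and 7.95 FPKM in *Myh9*-deficient libraries. The third *Myh9*-deficient library lay only 0.465 FPKM above the highest control library. The mean rose from 7.20 ± 0.345 to 9.14 ± 1.21 FPKM (SD, n = 3 each), or 1.27-fold, with a log2 difference of 0.30 and an adjusted p of 0.0338 (limma). This call did not hold in 5 of the 6 fits that left out a library. The adjusted p was 0.0652, 0.09995 and 0.0761 without control library 1, 2 or 3, 0.0847 and 0.0630 without *Myh9*-deficient library 1 or 2, and 0.0107 without library 3. It was also lost with no filter on low values (limma, adjusted p = 0.0839) and with the replicate number as a block (0.0612). With that block and the GC content and length trends taken out, the adjusted p was 0.0654 (limma). Voom on the reads gave an adjusted p of 0.00927.

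*Gp1ba* (ENSMUSG00000050675, chromosome 11: 70639122 to 70642036, plus strand), the subunit that binds von Willebrand factor, was read at 0.851, 1.11 and 0.824 FPKM in the controls and 0.943, 1.09 and 1.07 FPKM in *Myh9*-deficient libraries. The groups overlapped, with the highest value in a control library. The 142 control and 156 *Myh9*-deficient reads gave a ratio of 1.12 with a 95% counting interval of 0.887 to 1.42 (exact), so that a rise as large as that of *Gp9* lay outside the interval. Without a filter the log2 fold change was 0.08 with an adjusted p of 0.599 (limma), and voom gave 0.19 with an adjusted p of 0.547.

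*Gp9* over *Gp1ba* was 10.1, 7.51 and 11.8 in the controls and 20.95, 20.6 and 18.7 in *Myh9*-deficient LSKs, means of 9.80 ± 2.18 and 20.1 ± 1.22 (SD, n = 3 each, exact permutation test, p = 0.1). *Gp5* over *Gp1ba* overlapped between groups, at 7.94 ± 1.54 and 8.87 ± 1.24 (exact permutation test, p = 0.5, n = 3 each). *Gp9* over *Gp5*, a ratio chosen after the values were seen, was 1.14 to 1.34 in the controls and 2.16 to 2.51 in *Myh9*-deficient LSKs. Of these pairs, those with *Gp9* as the upper gene kept the groups apart.

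**Figure D2:**
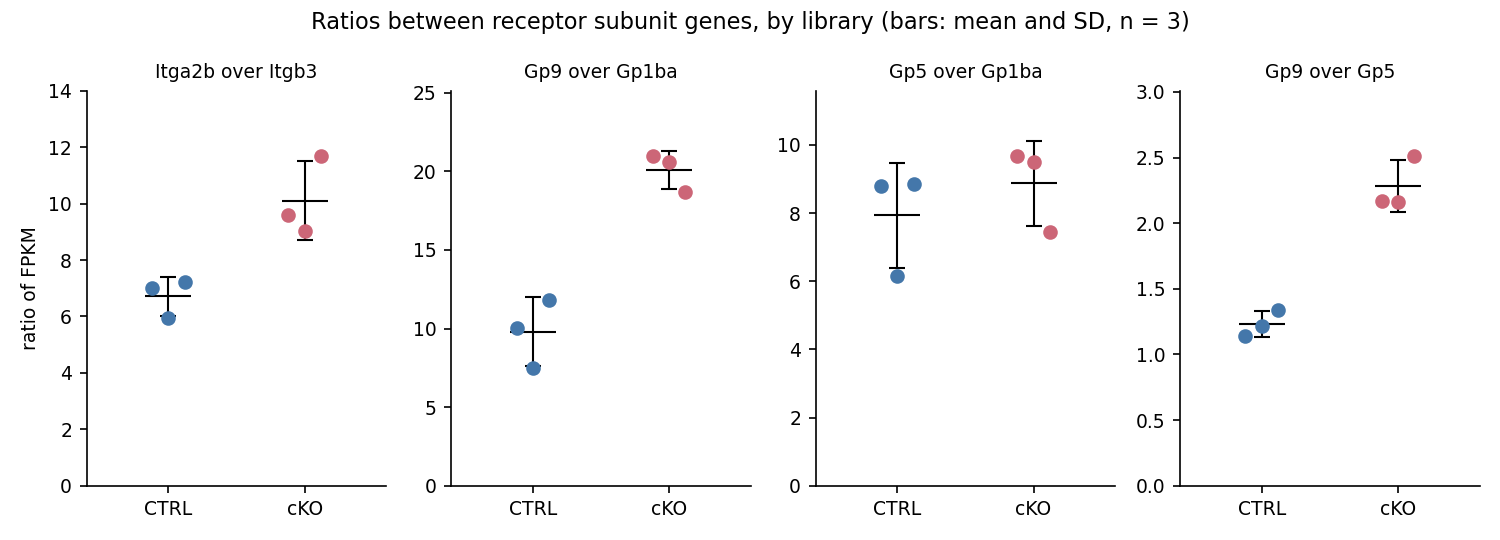
Ratio of FPKM (vertical axes, from 0) between genes of the same receptor in the 3 control (CTRL) and 3 *Myh9*-deficient (cKO) libraries, with bars for the mean and SD. The groups are separate for Itga2b over Itgb3, Gp9 over Gp1ba and Gp9 over Gp5 and overlap for Gp5 over Gp1ba, where the means are 7.94 and 8.87.

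*Gp1bb* (ENSMUSG00000050761, chromosome 16: 18620317 to 18622403, minus strand), the subunit linked to *Gp1ba* by a disulfide bond, was listed with 0 reads in all 6 libraries. In GENCODE M21, 1902 of its 2087 exonic bases, or 91.1%, are also exons of *Sept5* on the same strand, and 867 are shared with *Gm49601*. Only 149 bases belong to no other gene. *Sept5* held 11, 6 and 1 reads in the controls and 2, 2 and 8 in *Myh9*-deficient libraries, and *Gm49601* held 0, 0 and 2 against 1, 0 and 0. How reads over several genes were counted is not given in the sources used here, so the 0 of *Gp1bb* limits reads that could be given to it alone.

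**Figure D3:**
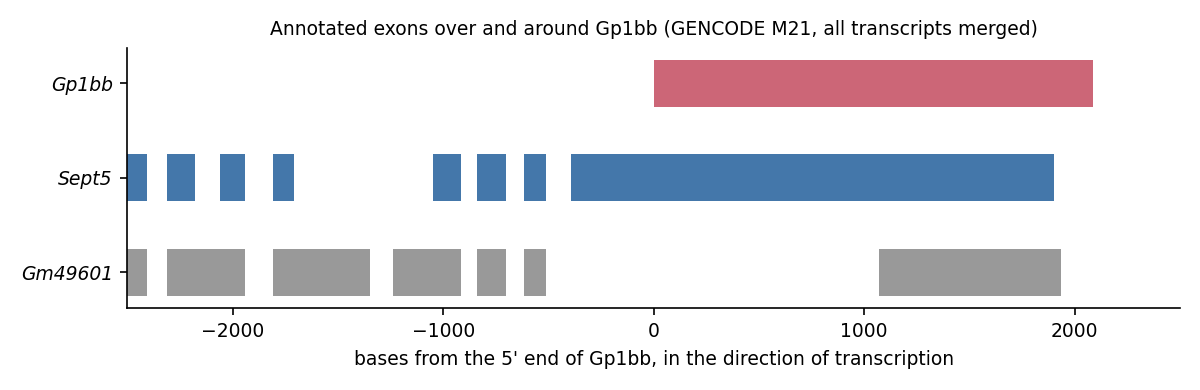
Merged exons of Gp1bb, Sept5 and Gm49601 (rows), drawn to scale along the distance in bases from the 5′ end of Gp1bb, in the direction of transcription. The last and longest Sept5 exon covers all but the final 185 bases of Gp1bb, and the last Gm49601 exon covers 867 of its bases.

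*Gp6* (ENSMUSG00000078810, chromosome 7: 4363965 to 4397744, minus strand) had 0 reads in the control libraries and 1, 2 and 0 in the *Myh9*-deficient libraries. A count of 0 allows up to 3 reads, or 0.0256 to 0.0289 FPKM in these libraries, so both groups were at or under the limit and no fold is given. *Fcer1g*, the gene of the signalling chain that the collagen receptor needs and that many myeloid cells share, was abundant and fell from 119 ± 2.66 to 76.7 ± 2.01 FPKM (SD, n = 3 each, log2 difference -0.63, limma adjusted p = 2.57e-05).

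Among the alpha granule genes, *Pf4* (ENSMUSG00000029373, chromosome 5: 90772435 to 90773383, plus strand), a chemokine of megakaryocytes that is known to restrain stem cell cycling, had the highest level of all 10 genes. It was read at 30.7, 32.8 and 32.2 FPKM in the controls and 71.3, 63.1 and 69.9 FPKM in *Myh9*-deficient libraries. The gap between the groups, 30.2 FPKM, was close to the whole control level. The mean rose from 31.9 ± 1.10 to 68.1 ± 4.42 FPKM (SD, n = 3 each), or 2.13-fold, with a log2 difference of 1.07 ± 0.0525 (SE) and an adjusted p of 2.80e-05 (limma).

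*Ppbp* (ENSMUSG00000029372, chromosome 5: 90768518 to 90770063, plus strand), a chemokine precursor of platelets, lies 2371 bases from *Pf4* on the same strand. It had 1, 3 and 7 reads in the controls and 17, 29 and 17 in *Myh9*-deficient libraries, or 0.0464, 0.157 and 0.337 against 0.838, 1.47 and 0.844 FPKM. Every *Myh9*-deficient library lay above every control library, although 2 of the control libraries were at or under 3 reads. The ratio of reads was 5.84 with a 95% counting interval of 3.05 to 12.3 (exact), and the ratio of mean FPKM, 5.83, became 10.3 without control library 3. *Ppbp* was below the filter. With no filter its log2 fold change was 0.79 with an adjusted p of 0.0200 (limma), where 9.02% of 24337 genes were called higher. Voom on the reads gave 2.67 with an adjusted p of 0.00118, where 22.2% of 14146 genes were called higher. This voom fit kept genes with 10 or more reads in at least 3 libraries. *Ppbp* met that only through its *Myh9*-deficient libraries, so its voom p is no separate support for the rise. The neighbouring genes thus differed by more than 10-fold in level on the FPKM scale in every library, and both were higher in *Myh9*-deficient LSKs.

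*Vwf* (ENSMUSG00000001930, chromosome 6: 125546774 to 125686679, plus strand), which is also made by endothelial cells, was read at 0.542, 0.470 and 0.477 FPKM in the controls and 0.715, 0.608 and 0.542 FPKM in *Myh9*-deficient libraries. The lowest *Myh9*-deficient library exceeded the highest control library by 0.000356 FPKM, so the groups were separate in name only. The 453 and 555 reads gave a ratio of 1.25 (95% counting interval 1.10 to 1.42, exact). With no filter the adjusted p was 0.313 (limma), and voom gave a log2 difference of 0.33 with an adjusted p of 0.0574. The 16 endothelial genes listed summed to 77.6 to 81.0 FPKM in the controls and 83.6 to 87.1 FPKM in *Myh9*-deficient libraries. *Cdh5*, *Kdr* and *Flt1* were at 0.115 FPKM or less in every library and *Ptprb* had no read, while *Egfl7*, *Pecam1* and *Erg*, which blood progenitors also express, had control means of 17.7, 19.6 and 28.4 FPKM. *Emcn*, below the filter, had means of 0.510 and 1.08 FPKM without overlap. The part of endothelial cells in the level of *Vwf* was not tested. Intervals from reads cover counting error only.

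**Figure D4:**
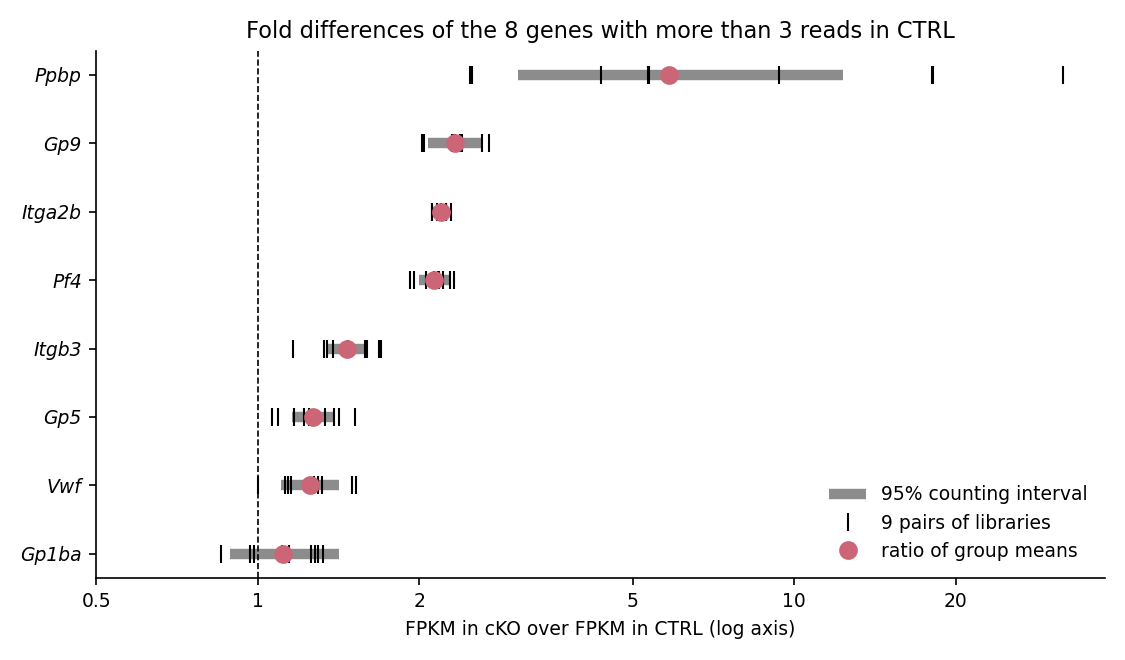
Ratio of FPKM in *Myh9*-deficient over control LSKs (horizontal log axis) for the 8 genes with more than 3 reads over the control libraries: ratio of group means (points), the 9 pairs of libraries (ticks) and the 95% counting interval (grey bars). Itga2b, Gp9 and Pf4 lie between 2.13 and 2.33 with narrow spreads, Ppbp lies at 5.83 with pairs from 2.49 to 31.6, and the interval of Gp1ba includes 1.

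Across the 5 genes tested, the third *Myh9*-deficient library was the lowest of its group for *Itgb3* and *Gp5* and the highest for *Itga2b*, and the second was the highest for *Gp9* and the lowest for *Pf4*. No library was thus high or low for the whole set. The genes whose 6 values followed the median profile of the 5 most closely, by root mean square distance on the log2 scale, were *Jchain* (0.0238), *Igha* (0.0317), *Igkc* (0.0422), *Dkkl1* (0.0613) and *Sphk1* (0.0637). *Jchain*, *Igha* and *Igkc* are immunoglobulin genes, and *Igkc* stood at 421 ± 6.89 FPKM in the controls and 880 ± 57.8 FPKM in *Myh9*-deficient LSKs (SD, n = 3 each). Of the 11547 other genes tested, 16 lay within 0.1 of the median profile.

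The genes that flank the 10 on their chromosomes were examined in the same test. Of 18 flanking protein-coding genes, 8 were tested, 1 was higher and 1 was lower, where 19.9% and 20.6% of all genes tested were. *Cd9*, the gene of a tetraspanin abundant on platelets, lies 51982 bases from *Vwf* and rose from 19.9 ± 1.49 to 28.9 ± 0.216 FPKM (SD, n = 3 each, log2 difference 0.52, limma adjusted p = 5.52e-04). *Gpatch8*, 5792 bases from *Itga2b*, fell by 0.21 on the log2 scale (adjusted p = 0.0277). *Slc25a11*, 2159 bases from *Gp1ba*, and *Atp13a3*, 1643 bases from *Gp5*, had log2 differences of -0.07 and 0.07 and did not pass the test. *Cxcl5*, 6893 bases from *Ppbp* and below the filter, had 1, 2 and 0 reads in the controls and 8, 12 and 8 in *Myh9*-deficient libraries. *Cxcl3*, 12719 bases from *Pf4* on the other side, overlapped, with 5, 7 and 2 against 7, 1 and 3 reads.

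Other genes of the lineage were taken from 6 lists of 135 genes. Of these, 108 were tested, 34 were higher and 34 lower (median log2 difference -0.0027), where 19.9% and 20.6% of all genes tested were. Platelet surface receptors and their partners were the list with the most rises, 12 of 18 genes tested, with 3 lower and a median of 0.35. *Tbxa2r*, the thromboxane receptor, rose from 3.79 ± 0.683 to 8.38 ± 1.01 FPKM (SD, n = 3 each, log2 difference 0.97, limma adjusted p = 0.00129). *F2rl3*, the thrombin receptor PAR4, rose from 8.98 ± 0.500 to 16.4 ± 0.774 FPKM, and *F11r*, a junctional adhesion molecule, from 2.22 ± 0.405 to 3.92 ± 0.332 FPKM (adjusted p = 8.29e-05 and 0.00425). Beside *Fcer1g*, the integrin chains *Itga6* and *Itgb1*, which many other cells share, were lower, with log2 differences of -0.20 and -0.17. The number of lower genes in this list was 1 when control library 2, control library 3 or *Myh9*-deficient library 3 was left out.

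**Figure D5:**
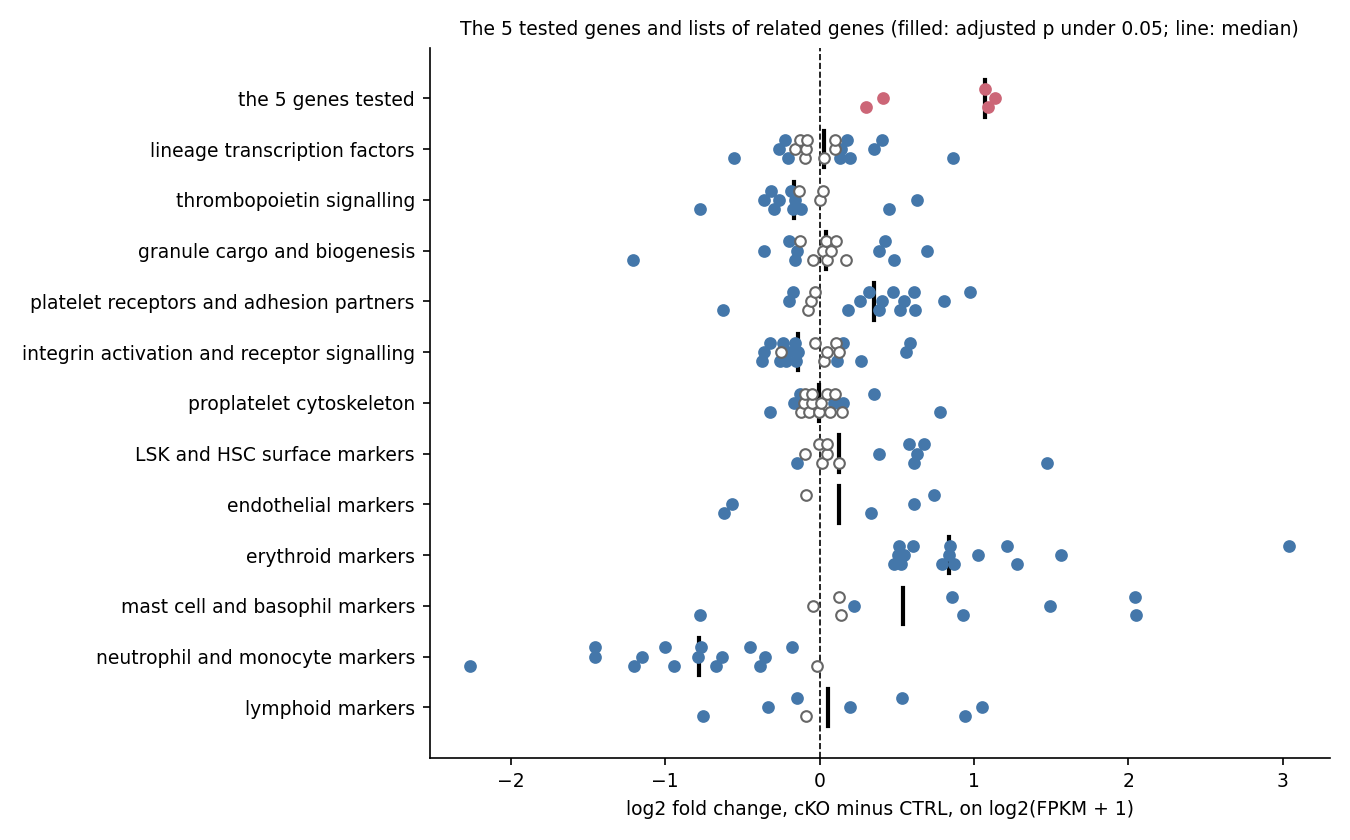
Log2 fold change (horizontal axis, cKO minus CTRL, on log2(FPKM + 1)) of the 5 genes tested and of each tested gene of 12 lists (rows), filled where the adjusted p was under 0.05, with a line at each median. Receptors (median 0.35), mast cell and basophil markers (0.54) and erythroid markers (0.84) lie to the right, neutrophil and monocyte markers (-0.78) to the left, and the other megakaryocyte lists straddle 0. The erythroid, mast cell and basophil, and lymphoid rows each include 2 genes that passed the filter only through their cKO level, without which their medians are 0.79, 0.18 and -0.12.

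Of 19 transcription factors of the lineage, all tested, 7 were higher and 4 lower, where 19.9% and 20.6% of all genes tested were. Their median log2 difference was 0.03. *Gfi1b*, a repressor needed for megakaryocytes and red cells, rose from 30.3 ± 1.26 to 55.9 ± 2.14 FPKM (SD, n = 3 each, log2 difference 0.86, limma adjusted p = 2.80e-05). *Gata1*, which drives both lineages, rose by 0.35 on the log2 scale and *Ets1* by 0.41. *Runx1*, needed for platelet gene expression, fell from 8.41 ± 0.406 to 5.41 ± 0.252 FPKM, a log2 difference of -0.55 (adjusted p = 3.81e-04). The ETS family genes *Etv6* and *Fli1* fell by 0.27 and 0.23 on the log2 scale. *Nfe2*, which platelet release depends on, had a log2 difference of -0.10 and did not pass the test (adjusted p = 0.0614).

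Of 14 thrombopoietin signalling genes tested, 2 were higher and 9 lower, with a median of -0.17, where 19.9% and 20.6% of all genes tested were. Of the feedback inhibitors of cytokine receptors, *Socs1* rose from 2.19 ± 0.240 to 3.35 ± 0.170 FPKM and *Socs3* fell from 6.73 ± 0.660 to 3.53 ± 0.392 FPKM (SD, n = 3 each, log2 differences of 0.45 and -0.77, limma adjusted p = 0.00399 and 9.40e-04). *Cbl*, a ubiquitin ligase, and the kinase gene *Tyk2* fell by 0.36 and 0.32 on the log2 scale.

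Of 17 granule genes tested, 4 were higher and 5 lower, with a median of 0.04, where 19.9% and 20.6% of all genes tested were. *Slc35d3*, needed for dense granules, and *Treml1*, a receptor held in alpha granules, rose by 0.70 and 0.48 on the log2 scale, and *Clu*, an alpha granule protein, by 0.42. *F13a1*, the A chain of factor XIII, which monocytes also make, fell from 44.1 ± 1.10 to 18.5 ± 0.352 FPKM (SD, n = 3 each, log2 difference -1.21, limma adjusted p = 3.53e-06). *Hps1* and *Hps4*, genes of lysosome-related organelles in many cells, fell by 0.36 and 0.20, and the call of *Hps4* did not hold in every alternative.

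Of 21 genes of integrin activation and receptor signalling tested, 5 were higher and 10 lower, with a median of -0.14. Over all genes tested, 19.9% were higher and 20.6% lower. *Lat*, an adaptor of the collagen receptor pathway, rose by 0.58 on the log2 scale, and the thromboxane synthesis genes *Ptgs1* and *Tbxas1* rose by 0.56 and 0.27. The call of *Tbxas1* did not hold in every alternative. The exchange factor genes *Vav3*, *Vav1* and *Rasgrp2*, shared with other blood cells, fell by 0.37, 0.36 and 0.32. The number of higher genes was 2 when control library 2 or 3 was left out and 3 without *Myh9*-deficient library 3. The number of lower genes was 6 with no filter on low values, 5 with GC content and length trends taken out and 3 with the replicate number as a block as well.

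Of 19 cytoskeletal genes of platelet release tested, 4 were higher and 3 lower, with a median of -0.0059, where 19.9% and 20.6% of all genes tested were higher and lower. The number of lower genes was 7 with quantile normalization, 6 with TPM, and 5 with a filter at 5 FPKM, with GC content and length trends taken out or with voom on the recovered reads. *Tuba8*, an alpha tubulin gene, rose from 12.8 ± 0.512 to 22.7 ± 0.633 FPKM (SD, n = 3 each, log2 difference 0.78, limma adjusted p = 3.54e-05), and *Tpm1* and *Coro1a*, both for actin-binding proteins, rose by 0.35 and 0.15. *Mkl1*, a cofactor of SRF, and the small GTPase genes *Rhoa* and *Rac1* fell by 0.32, 0.17 and 0.13. Neither *Rhoa* nor *Rac1* kept its call in every alternative.

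Some genes of the lineage were read at trace level. Of 26 genes of the 6 lists with a read but below the filter, 11 were higher in each *Myh9*-deficient library than in each control library, 2 were lower in each and 13 overlapped, where 9.48% and 4.97% of all such genes were higher or lower in this way. Examples chosen after their values were seen are *Mpig6b*, an inhibitory receptor of megakaryocytes, with 1, 0 and 0 reads in the controls and 10, 7 and 6 in *Myh9*-deficient libraries. The podoplanin receptor gene *Clec1b* had 6, 9 and 6 against 13, 21 and 25 reads, and *Cd226*, which is shared with lymphocytes, had 2, 2 and 3 against 21, 26 and 13. The platelet tubulin gene *Tubb1* overlapped between the groups, with 20, 9 and 10 reads in the controls and 10, 8 and 7 in *Myh9*-deficient libraries. *P2ry12*, the ADP receptor, overlapped too, with 7, 7 and 6 against 0, 7 and 3 reads. Higher read numbers in *Myh9*-deficient LSKs were thus not general among these low genes.

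Markers of other cell types differed between the groups as well, where 19.9% of all genes tested were higher and 20.6% lower. Of 22 erythroid genes listed, 13 had a mean of 1 FPKM or more in both groups, and these 13 rose (median log2 difference 0.79). *Hbb-bs* and *Hba-a1* passed the filter only through their *Myh9*-deficient level, and of the 7 below it 2 were higher without overlap, 1 was lower and 4 overlapped. The summed level of the list went from 660 to 663 FPKM in control to 1147 to 1189 FPKM in *Myh9*-deficient libraries. *Hbb-bt*, an adult globin gene, rose from 3.65 ± 0.540 to 37.4 ± 6.99 FPKM (SD, n = 3 each), and *Cldn13*, a gene of erythroblasts, from 5.09 ± 0.723 to 17.0 ± 1.24 FPKM. Of 15 mast cell and basophil genes listed, 8 had a mean of 1 FPKM or more in both groups, of which 4 rose and 1 fell (median 0.18). The summed level of the list was 122 to 135 FPKM against 189 to 198 FPKM, with *Mcpt1* without a read. The basophil protease gene *Prss34* rose by 2.05 on the log2 scale and *Il6ra* fell by 0.77. The mast cell chymase gene *Cma1* and *Fcer1a* passed the filter only through their *Myh9*-deficient level, with means of 0.360 and 0.511 FPKM in the controls and 4.63 and 1.75 FPKM in *Myh9*-deficient LSKs.

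Neutrophil and monocyte genes moved the opposite way, where 19.9% of all genes tested rose and 20.6% fell. Of 16 tested of 18 listed, 15 fell and none rose, at a median log2 difference of -0.78, and their summed level was 11208 to 11241 FPKM in the controls and 6212 to 6319 FPKM in *Myh9*-deficient libraries. *Cd14* and *Csf1r* fell by 2.26 and 1.46 on the log2 scale. Of 18 lymphoid genes listed, 6 had a mean of 1 FPKM or more in both groups. Of these 6, 2 rose and 3 fell (median -0.12). Of the 10 below the filter, 6 were higher without overlap, 0 were lower in this way and 4 overlapped. Among all genes with a read below the filter, 9.48% and 4.97% were higher or lower without overlap. The summed level over the list was 579 to 587 FPKM in the controls against 509 to 514 FPKM in *Myh9*-deficient libraries. *Jchain* rose by 1.05, and *Ighm* and *Nkg7* fell by 0.75 and 0.34. *Klrd1* and *Cd79a* passed the filter only through their *Myh9*-deficient level, with means of 0.919 and 0.743 FPKM in the controls and 2.68 and 1.52 FPKM in *Myh9*-deficient LSKs. Of 6 endothelial genes tested of 16 listed, 3 rose and 2 fell (median 0.12). *Egfl7* and *Esam*, both also found in stem cells, rose by 0.74 and 0.61, and *Pecam1* and *Plvap* fell by 0.62 and 0.57. Of 13 LSK and stem cell surface genes tested of 16 listed, 6 rose and 1 fell (median 0.13), with a summed level of 432 to 439 FPKM against 442 to 477 FPKM. *Thy1* and *Procr*, a marker of stem cells, rose by 1.47 and 0.67, and *Kit* fell by 0.14, a call that did not hold in every alternative. The part of these cell types in the differences of the 10 genes was not tested.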

How the data were processed

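RNA-seq of 3 control and 3 *Myh9*-deficient sets of sorted LSK cells was used. Libraries were made from poly I:C treated mice with a TruSeq RNA kit, which does not mark strand. Poly I:C was injected 2 times per the labels, while the methods of the study name another number. The authors deposited FPKM values with gene lengths. The submitters' processing notes name HISAT2 2.0.5 and mm10, and the counting program is not given in the sources used here. FPKM times gene length gave whole reads for 100% of values in each library (tolerance 0.001 of a read), and the deposited FPKM share 1 median-of-ratios factor (1.00404) in all 6 libraries. GENCODE M21 (GRCm38) holds 54409 of the 54532 gene identifiers, and the start and end are the same for 53499.

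Log2(FPKM + 1) was compared with the two-sided moderated test of limma 3.58.1 in R 4.3.3 (lmFit, then eBayes with its trend option) for genes whose mean was 1 FPKM or more, with Benjamini-Hochberg adjustment over 11552 genes and a threshold of 0.05. Fold changes on this scale understate those of low genes. The limma and voom fits were tested on simulated reads, and the read recovery was not. Ratios used exact permutation tests, ratios of reads exact 95% intervals, and 3 reads the upper limit of a count of 0 (scipy 1.17.1, pandas 2.3.3, Python 3.11.15). Depth was 17571544 to 19894562 reads on genes, and intervals cover counting error only. The 10 genes and all lists were chosen with earlier results of these data known. Named genes were the 10, up to 3 genes per direction with the largest change in each lineage list and 2 in each other list, *Myh9*, flanking and overlapping genes, and the 5 closest profiles. Other genes named were chosen after their values were seen. A gene that the rule selects is not reported here. Alternatives were other pseudocounts, filters, scalings and moderation, a replicate block, leaving out each library and, chosen after seeing the data, voom on the reads and removal of GC content and length trends. Columns of gene annotation were used for names and lengths only.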

Additional observations from a re-analysis of the deposited data

How the results depend on the processing

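*Itga2b*, *Itgb3*, *Gp9* and *Pf4* kept their direction and stayed under an adjusted p of 0.05 in each alternative that tested them, with log2 differences of 1.07 to 1.11, 0.36 to 0.49, 1.08 to 1.1998 and 1.03 to 1.12 without any 1 library. Of the 10 genes, 4 to 5 were called without any 1 library, and over all genes 1791 to 2017 were higher and 1743 to 2064 lower. Over 59 genes followed one by one, 995 of 1047 values kept direction and side of the threshold, and 52 values of 9 genes (*Gp5*, *Hps4*, *Itga6*, *Itgb1*, *Kit*, *Myh9*, *Rac1*, *Rhoa* and *Tbxas1*) kept the direction only. None reversed. The ratio of mean FPKM of *Ppbp* was 4.25 to 10.3 without any 1 library.

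With a mean of at least 5 FPKM, which tests fewer genes, 1 thrombopoietin, 1 granule and 6 receptor genes were higher and 5 cytoskeletal genes lower. With no filter, 1 receptor gene was lower and 3 signalling genes were higher and 6 lower. Cytoskeletal genes lower were 7 with quantile normalization, 6 with TPM and 5 with voom, and 3 signalling genes were higher with TPM. With GC content and length trends removed, 5 signalling and 5 cytoskeletal genes were lower. Without any 1 library, 1 to 2 receptor genes were lower and 2 to 5 signalling genes higher. The cause of these differences was not tested.

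Libraries that share a number did not deviate together (correlations of -0.0046, -0.011 and -0.026). Whether the numbers pair the samples is not given in the labels, and these correlations cannot settle it. With the replicate number as a block, 2063 genes were higher and 2044 lower over all genes, 4 of the 10 genes were called (*Gp5*, adjusted p = 0.0612 by limma, was not), and 3 signalling genes were higher. With the block and the GC content and length trends removed, 3 granule, 1 receptor and 3 signalling genes were lower. Scaling by the median of ratios changed nothing, since the deposited values carry it. Planned count models on the recovered reads were not run, since the deposited unit is FPKM, and voom was run in their place. At this depth *Gp6* could not be compared.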
